A study of Homo sapiens with 4 samples.

Results

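Receptor tyrosine kinases are single-pass membrane proteins that bind ligands outside the cell and carry a tyrosine kinase domain inside it. Ligand binding brings receptors together, the kinase domains phosphorylate each other, and adaptors docked on the phosphotyrosines start RAS-MAPK, PI3K-AKT and PLC-gamma signalling. In Ewing sarcoma, a bone and soft tissue tumour driven by a fusion of EWSR1 with an ETS factor gene, several of these receptors have been studied as drug targets. The 49 genes described here were taken by symbol from the 23228 genes in the deposited count files, and they make up 15 receptor families. The insulin-type receptors IGF1R and INSR were left out of the set.

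RNA had been sequenced from A673 cells, human cells grown from an Ewing sarcoma, in which EWSR1 is fused to FLI1 and BRAF carries an activating mutation. A single cell line was the source of all 4 libraries. Cells received an siRNA against FAT4, which encodes a giant atypical cadherin, or a scrambled control siRNA by lipid transfection, and were harvested 48 h or 24 h later. Each siRNA and time was represented by 1 library, so no value has a replicate culture behind it. The labels do not give the sequences of either siRNA. Reads counted on genes totalled 15413960 in FAT4 siRNA 48 h against 19614913 in control 48 h, and 15196813 in FAT4 siRNA 24 h against 22625833 in control 24 h.

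FAT4 itself stood at 60.2 and 71.8 CPM (counts divided by the TMM-scaled library size) with the FAT4 siRNA at 48 h and 24 h, against 149 and 165 CPM with the control siRNA. It fell by 1.25 on the log2 scale (SE 0.0978, edgeR adjusted p = 8.65e-34). Of 10 genes that mark Ewing sarcoma lines, 9 reached 1 CPM in every library, and their summed level was 3930 to 4690 CPM. CD99, which codes for a surface protein used to diagnose Ewing sarcoma, was listed at 0 in all 4 libraries, and the cause was not tested. No marker of endothelial, blood, melanocytic or skeletal muscle cells reached 1 CPM in every library, with summed levels of at most 2.06, 0.676, 1.34 and 0 CPM. The epithelial list had 2 of 6 members expressed, KRT8 and KRT18, and the adrenergic neuroblastoma list 1 of 4, HAND2.

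A673 cells expressed 28 of the 49 receptors, counting a gene as expressed when it reached 1 CPM in every library. Another 5 receptors (ERBB3, FLT4, KDR, NTRK2 and AXL) lay around or below that level, 12 had at most 9 counts in any library, and 4 had 0 counts in all libraries. The gap around the threshold was wide. The lowest value of any expressed receptor in a library was 4.82 CPM (FGFR3), while FLT4, the nearest below the threshold, stood at 1.41 and 0.879 CPM with the FAT4 siRNA and at 1.79 and 1.16 CPM with the control siRNA at 48 h and 24 h.

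The receptors at 0 were TIE1, an endothelial receptor, EPHA6, EPHA8 and ROS1. With 3 counts taken as the limit that a count of 0 allows, these are below 0.192 CPM in FAT4 siRNA 48 h against 0.149 CPM in control 48 h, and below 0.203 CPM in FAT4 siRNA 24 h against 0.134 CPM in control 24 h. The traces were EGFR, PDGFRA, CSF1R, FGFR2, MUSK, NTRK3, MST1R, TEK, EPHA1, EPHA10, EPHB1 and EPHB6, none of which exceeded 0.447 CPM. EGFR, the prototype of the ErbB family, had 3 and 6 counts with the FAT4 siRNA at 48 h and 24 h and 6 and 6 counts with the control siRNA. PDGFRA had 1 and 3 counts with the FAT4 siRNA and 3 and 0 with the control siRNA, whereas its paralog PDGFRB was expressed. EPHA1 had 0 counts in both FAT4 siRNA libraries and 7 and 6 counts in the control libraries, and did not pass the filter on low counts.

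**Figure D1:**
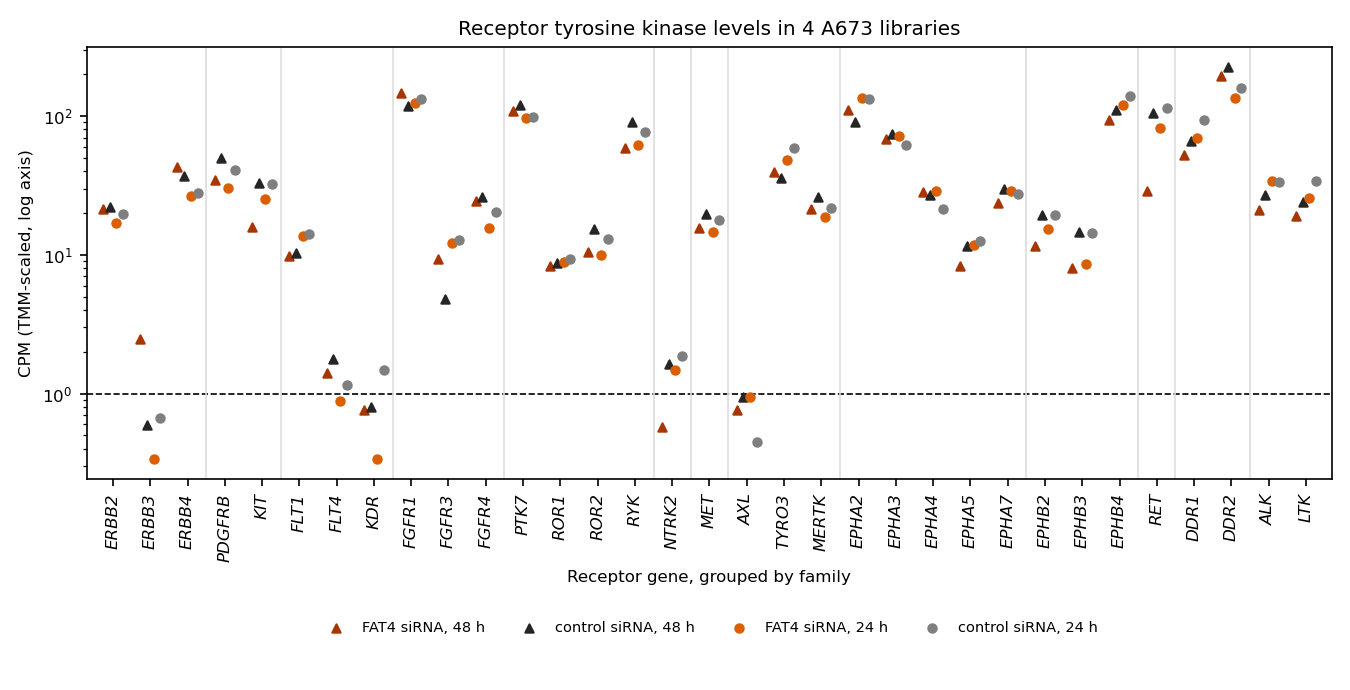
Level of each of the 33 receptors that passed the filter on low counts, in CPM on a log axis, 1 point per library, grouped by family between the grey lines; the dashed line marks 1 CPM. The 28 expressed receptors lie above the line in all 4 libraries, and ERBB3, FLT4, KDR, NTRK2 and AXL straddle it or lie below it.

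Levels of different receptors were compared per length, as RPKM (here the TMM-scaled CPM divided by the length in kilobases of the longest coding transcript), and the ephrin receptors led. EPHA2 averaged 29.5 RPKM over the 4 libraries (22.7 to 34.0) and EPHB4 26.7 (21.5 to 32.0). PTK7, a kinase-dead receptor tied to planar polarity and WNT signalling, averaged 24.8 (22.5 to 28.0), and RYK, another pseudokinase that binds WNT ligands, 24.4 (20.1 to 30.7). FGFR1 averaged 21.5 (19.6 to 24.1). The ranges of these 5 receptors overlapped and their full order changed between libraries, although EPHA2 and PTK7 stood above FGFR1 in each library.

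Below them came the collagen receptors DDR2 at 17.6 (13.2 to 22.4) and DDR1 at 17.0 (12.6 to 22.7), and RET, the receptor for GDNF-family ligands, at 14.6 (5.13 to 20.1). EPHA3 followed at 11.8 and LTK at 8.45, and the 10 leading receptors held 74.4% of the sum over all members. At the other end of the expressed receptors stood ROR1 at 1.51 and EPHA5 at 1.31, whose ranges overlapped although ROR1 was higher in each library. The order depends on the transcript taken for each gene. With the median length of the coding transcripts in place of the longest, 7 of the 10 leading receptors remained among the leading 10, DDR1 came first and EPHA2 ninth.

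Summed over all 49 genes, receptor transcripts came to 236 RPKM in FAT4 siRNA 48 h against 278 in control 48 h, and to 253 in FAT4 siRNA 24 h against 289 in control 24 h. The EPHA and EPHB receptors together held 31.1% of the sum in FAT4 siRNA 48 h against 27.5% in control 48 h, and 34.8% in FAT4 siRNA 24 h against 31.3% in control 24 h. RET held 2.18% in FAT4 siRNA 48 h against 6.76% in control 48 h, and 5.69% in FAT4 siRNA 24 h against 6.96% in control 24 h. The summed level was thus lower with the FAT4 siRNA at each time, and the RET share was lowest in FAT4 siRNA 48 h.

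**Figure D2:**
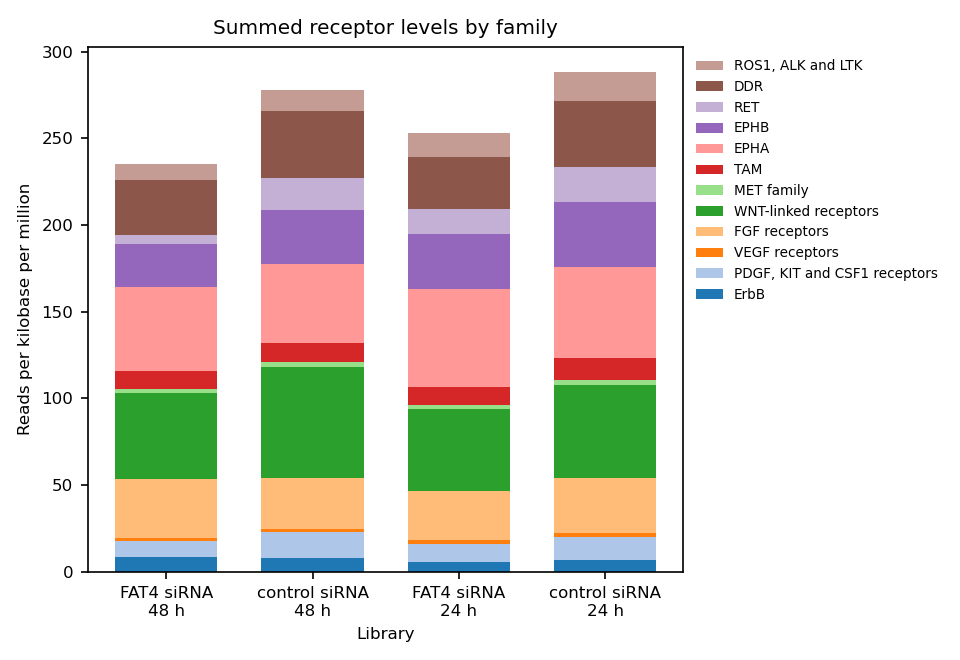
RPKM (reads per kilobase and per library size) summed over the members of each receptor family with an expressed member, stacked for each library. Bars reach 236 in FAT4 siRNA 48 h against 278 in control 48 h, and 253 in FAT4 siRNA 24 h against 289 in control 24 h, and the EPHA and WNT-linked receptors are the largest blocks in every bar.

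The main question of the design is what changes with the FAT4 siRNA. Over both times, 10 of the 33 receptors tested fell and none rose: RET, EPHB3, KIT, EPHB2, ROR2, PDGFRB, RYK, DDR1, LTK and DDR2. The changes lay between -1.13 and -0.23 on the log2 scale, and the other 23 receptors were not called. The 10 lower calls are 30.3% of the receptors tested, beside 14.1% of all 13712 genes tested that were called lower. None was called higher, beside 11.9% of all genes, and 2 receptors had a higher level at an unadjusted p under 0.05 (FGFR3 and ERBB3). The fitted change was below 0 for 25 of 33 receptors (75.8%), against 51.6% of all genes tested, and its median was -0.23, against -0.01 for all genes. Calls come from edgeR's quasi-likelihood test on siRNA and time as additive terms, with Benjamini-Hochberg adjustment over all genes. The fit has 1 residual degree of freedom, so its p-values and SEs do not measure the spread between cultures. In RNA from whole cultures, fewer cells with a transcript and less of it per cell cannot be told apart.

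RET was the receptor with the largest change. It signals for GDNF-family ligands once they are held by a GFRA co-receptor. RET stood at 29.0 and 81.6 CPM with the FAT4 siRNA at 48 h and 24 h, against 106 and 114 CPM with the control siRNA. Both FAT4 siRNA libraries lay below both control libraries, and FAT4 siRNA 48 h stood far below the rest. The fitted log2 fold change was -1.13 (SE 0.103, edgeR adjusted p = 6.29e-25). That SE follows the dispersion trend shared by all genes and does not reflect how far RET's ratios at the 2 times lie apart. DESeq2 gave -1.16 and did not call RET (adjusted p = 0.265), and over all the alternatives tried the adjusted p ran from 7.64e-25 to 0.404. The plain ratio was 0.273 at 48 h (95% counting interval 0.246 to 0.302) and 0.718 at 24 h (0.67 to 0.769), so the intervals at the 2 times did not overlap.

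KIT, the receptor for stem cell factor, stood at 15.8 and 25.2 CPM with the FAT4 siRNA at 48 h and 24 h, against 33.2 and 32.6 CPM with the control siRNA. Its fitted log2 fold change was -0.71 (SE 0.133, edgeR adjusted p = 2.54e-06). The ratio was 0.476 at 48 h (0.409 to 0.551) and 0.771 at 24 h (0.679 to 0.875). As with RET, the groups did not overlap and the ratio at 48 h was the lower one. PDGFRB, a receptor for PDGF-BB and PDGF-DD and the other expressed member of this family, stood at 34.8 and 30.3 CPM with the FAT4 siRNA, against 49.6 and 40.9 CPM with the control siRNA (log2 fold change -0.47, SE 0.12, edgeR adjusted p = 0.000875). Here too the groups did not overlap.

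Among the EPHB receptors, which bind membrane-anchored B-type ephrins and act in cell repulsion and boundary formation, EPHB3 and EPHB2 fell. EPHB3 stood at 7.99 and 8.66 CPM with the FAT4 siRNA at 48 h and 24 h, against 14.6 and 14.3 CPM with the control siRNA (log2 fold change -0.80, SE 0.170, edgeR adjusted p = 5.55e-05). Its ratios were alike, 0.549 at 48 h (0.441 to 0.679) and 0.604 at 24 h (0.489 to 0.744). EPHB2 stood at 11.6 and 15.3 CPM with the FAT4 siRNA, against 19.5 and 19.4 CPM with the control siRNA (log2 fold change -0.54, SE 0.150, edgeR adjusted p = 0.00283). In neither gene did the groups overlap. EPHB4, the most abundant of them, had 93.0 and 121 CPM with the FAT4 siRNA and 110 and 139 CPM with the control siRNA and was not called (edgeR adjusted p = 0.0752).

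None of the 5 expressed EPHA receptors was called. EPHA2 had 110 and 135 CPM with the FAT4 siRNA at 48 h and 24 h, against 90.1 and 132 CPM with the control siRNA (edgeR adjusted p = 0.211). EPHA4 had 28.2 and 28.7 CPM with the FAT4 siRNA, against 26.8 and 21.4 CPM with the control siRNA (edgeR adjusted p = 0.164). Its groups did not overlap, with the FAT4 siRNA libraries higher. EPHA3, EPHA5 and EPHA7 covered 61.6 to 73.7, 8.25 to 12.5 and 23.7 to 29.9 CPM over the 4 libraries, with overlapping groups. Whether the EPHA and EPHB receptors differ in their response was not tested.

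Of the receptors tied to WNT ligands, RYK and ROR2 fell, and PTK7 and ROR1 were not called. RYK stood at 59.3 and 61.4 CPM with the FAT4 siRNA at 48 h and 24 h, against 90.3 and 76.5 CPM with the control siRNA (log2 fold change -0.46, SE 0.102, edgeR adjusted p = 9.44e-05). ROR2, a receptor for WNT5A, stood at 10.4 and 9.94 CPM with the FAT4 siRNA, against 15.4 and 12.9 CPM with the control siRNA (log2 fold change -0.48, SE 0.165, edgeR adjusted p = 0.0202). The groups did not overlap in either. PTK7 had 109 and 96.3 CPM with the FAT4 siRNA and 120 and 98.6 CPM with the control siRNA, and ROR1 lay between 8.31 and 9.36 CPM in all libraries.

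Both collagen receptors were called, as was LTK, whose ligands are the ALKAL proteins. DDR1 stood at 52.3 and 68.9 CPM with the FAT4 siRNA at 48 h and 24 h, against 66.1 and 94.3 CPM with the control siRNA (log2 fold change -0.40, SE 0.103, edgeR adjusted p = 0.00111). LTK stood at 19.2 and 25.6 CPM with the FAT4 siRNA, against 23.9 and 34.2 CPM with the control siRNA (log2 fold change -0.37, SE 0.133, edgeR adjusted p = 0.0256). DDR2 stood at 194 and 134 CPM with the FAT4 siRNA, against 227 and 158 CPM with the control siRNA (log2 fold change -0.23, SE 0.0921, edgeR adjusted p = 0.0488). In these 3 genes the level also moved with time, and the FAT4 siRNA and control values overlapped across times although the FAT4 siRNA library was the lower one at each time. DDR2 lay at the edge of the threshold and lost its call with another scaling or filter. ALK, the paralog of LTK, had 21.2 and 34.0 CPM with the FAT4 siRNA and 26.9 and 33.3 CPM with the control siRNA and was not called (edgeR adjusted p = 0.424).

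The remaining families gave no call. FGFR3 had 9.33 and 12.2 CPM with the FAT4 siRNA at 48 h and 24 h, against 4.82 and 12.7 CPM with the control siRNA (log2 fold change 0.39, SE 0.179, edgeR adjusted p = 0.0949). FGFR1 had 146 and 124 CPM with the FAT4 siRNA, against 119 and 133 CPM with the control siRNA (edgeR adjusted p = 0.502). ERBB3, an ErbB receptor with little kinase activity of its own, had 39 and 5 counts with the FAT4 siRNA, against 12 and 15 counts with the control siRNA (edgeR adjusted p = 0.0982). In each of these 3 genes the FAT4 siRNA library was above its control at 48 h and below it at 24 h. ERBB2, ERBB4, FGFR4, MET, TYRO3, MERTK and FLT1 were expressed and not called, with fitted log2 fold changes from -0.31 for MET to 0.08 for ERBB4. KDR and NTRK2, both below 2 CPM everywhere, had fitted log2 fold changes of -1.01 and -0.80 and were not called either (edgeR adjusted p = 0.122 and 0.121). Groups that do not overlap were not limited to called receptors: MET, MERTK, NTRK2 and KDR showed them too. The libraries of each siRNA come from different times and are not replicates. How many of all genes separate in this way was not counted. MET had 15.6 and 14.7 CPM with the FAT4 siRNA at 48 h and 24 h, against 19.7 and 17.9 CPM with the control siRNA. MERTK had 21.4 and 18.7 CPM with the FAT4 siRNA, against 26.3 and 21.8 CPM.

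At each time taken alone there is 1 library against 1, so ratios are given with their counting intervals and no test. At 48 h the interval lay below 1 for 17 of the 28 expressed receptors and above 1 for 4 (ERBB4, FGFR1, EPHA2 and FGFR3). At 24 h it lay below 1 for 16 and above 1 for 2 (EPHA3 and EPHA4). These intervals cover counting error only, and how many of all genes have such intervals was not counted. The median log2 ratio of the expressed receptors was -0.27 at 48 h and -0.20 at 24 h, against 0.01 and -0.01 for all genes averaging 5 CPM or more. The 10 receptors called lower had intervals below 1 at both times. They were picked from the same libraries, so this gives no separate support. A change of at least 1 on the log2 scale (CPM plus 1) was seen in 3 receptors, all at 48 h: RET at -1.84, KIT at -1.03 and ERBB3 at 1.13. ERBB3 averaged 1.02 CPM and so lies outside the 10595 genes averaging 5 CPM or more. Among those genes, 1.09% were that much lower and 0.396% that much higher at 48 h, and 0.255% lower and 0.179% higher at 24 h, where no receptor passed that size.

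**Figure D3:**
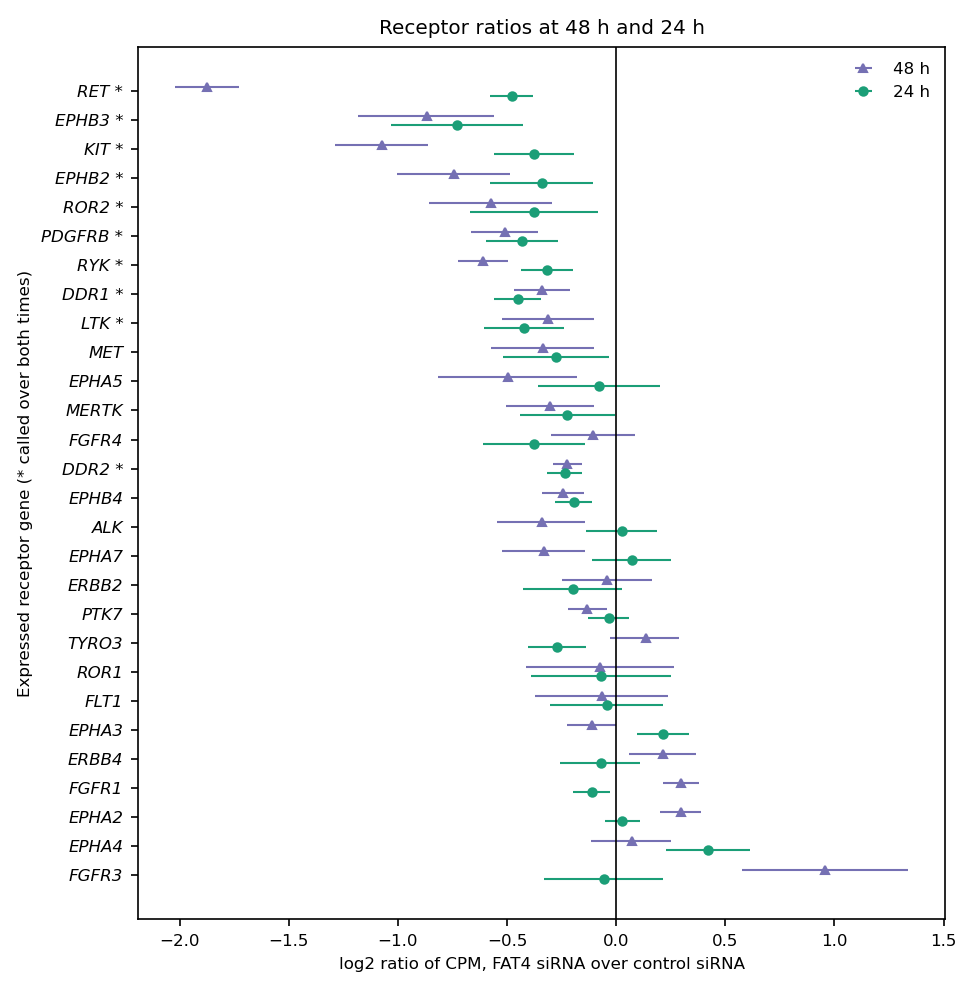
Ratio of FAT4 siRNA over control CPM on a log2 axis for each of the 28 expressed receptors, at 48 h (triangles) and 24 h (circles), ordered by the fitted change; bars are 95% counting intervals and cover counting error only. RET and KIT lie farthest left at 48 h, with ratios of 0.273 and 0.476, and FGFR3 farthest right, with 1.94.

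The called receptors had a higher median GC content than the other expressed receptors, which was not tested. The longest coding transcripts of the 10 called receptors had a median GC content of 56.6%, against 50.5% for the other expressed receptors and 48.5% for all genes tested. Single receptors went the other way. KIT, RYK and DDR2 were called at 42.6%, 44.1% and 41.6%, while FGFR4 and EPHB4 were not called at 63.6% and 62.6%. Each library was then corrected for GC content and transcript length before the fit. Of the 33 receptors tested, 5 were then called lower, beside 10.8% of all genes. These were RET, KIT, RYK, EPHB3 and DDR2, all among the 10. Another 3 of the 33 were called higher (FGFR3, EPHA2 and FGFR1), beside 13.8% of all genes. The corrected log2 fold changes were -0.97 for RET, -0.75 for KIT, -0.53 for EPHB3 and -0.52 for RYK, and 0.66, 0.38 and 0.27 for FGFR3, EPHA2 and FGFR1. EPHB2, ROR2, PDGFRB, DDR1 and LTK kept a negative sign, from -0.32 to -0.07, without a call. The median over all receptors tested became -0.07, against 0.03 for all genes. Of the calls over all genes, 45.7% were higher without the correction and 56.0% with it, so the leading direction over all genes rests on that choice. Among the receptors, the lean towards lower calls was weaker with the correction, at 5 lower and 3 higher. Both counts then lay closer to the shares over all genes than without it. DESeq2 on the same additive design called 3 receptors lower (KIT, RYK and EPHB3), beside 5.75% of all genes with an adjusted p, and none higher, beside 5.42%; no receptor was higher by it at an unadjusted p under 0.05 either. RET, EPHB2, ROR2, PDGFRB, DDR1, LTK and DDR2 lost their calls in DESeq2, with log2 fold changes of -1.16, -0.53, -0.46, -0.46, -0.39, -0.36 and -0.22. KIT, RYK and EPHB3 were called lower by all 3 procedures.

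**Figure D4:**
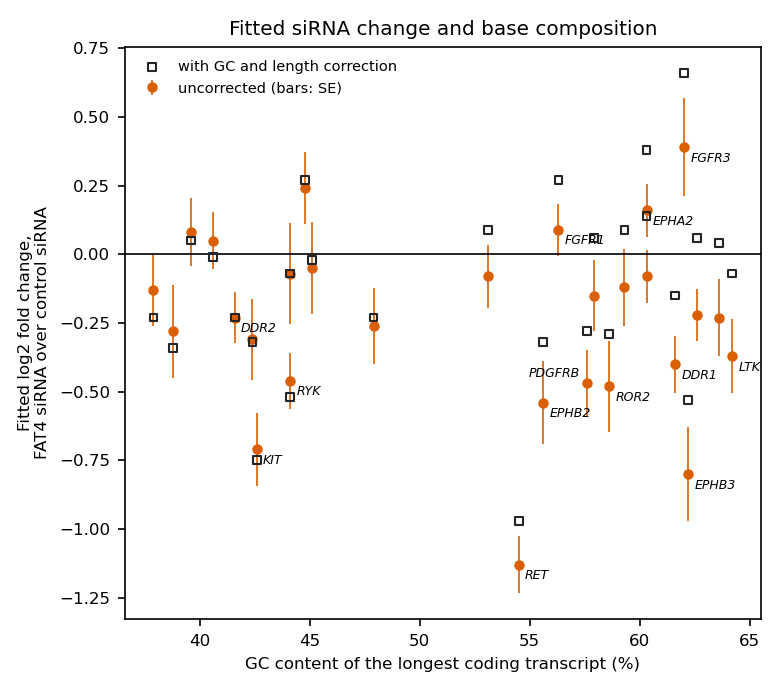
Fitted log2 fold change (FAT4 siRNA over control siRNA, both times) of the 28 expressed receptors against the GC content of their longest coding transcript in percent, without correction (filled circles, bars are standard errors) and after correction for both GC content and length (open squares). Above 50% GC the squares sit above the circles, as for LTK with -0.07 against -0.37, while KIT at the low end has -0.75 with the correction and -0.71 without it.

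The 3' UTR word TTGGACT, which was picked earlier from the ratios of these same libraries and so gives no separate support, was looked up in the receptors on the transcript strand. Of the 33 tested receptors 7 (21.2%) hold it, against 12.1% of 12503 tested genes with a 3' UTR of at least 50 bases. The longest 3' UTR of each gene was searched, and the shares were not adjusted for its length. In the receptors with the word that length ran from 787 bases (EPHB3) to 7898 bases (ERBB4). The sites in the 3 called receptors that hold it are shown to let them be compared; the capitals mark the word, and positions count from the first base of the 3' UTR in GENCODE release 29.
RYK, chromosome 3, position 263: catacttactTTGGACTaggggtacat
EPHB3, chromosome 3, position 69: tttcggactcTTGGACTtttggatgcc
EPHB2, chromosome 1, position 3709: aatgagagcaTTGGACTgggtgaggca
EPHB2, chromosome 1, position 6863: accagcctttTTGGACTctagagaaga
The word was also present in ERBB4, FGFR3, EPHA5 and NTRK2, none of which was called. A site in a receptor with the opposite sign is shown beside them.
FGFR3, chromosome 4, position 2620: gatttattttTTGGACTtcaaagcaag
Of the 26 tested receptors without the word, 7 were called lower, RET and KIT among them. Presence of these letters is a description and no measure of binding.

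The other factor of the design is time. At 48 h against 24 h, over both siRNAs, 4 receptors rose (ERBB3, ERBB4, FGFR4 and DDR2) and 9 fell (FLT1, FGFR3, TYRO3, EPHA2, EPHB4, RET, DDR1, ALK and LTK). These are 12.1% and 27.3% of the receptors tested, beside 13.8% and 12.8% of all genes called higher and lower. The median fitted change was -0.04 for the receptors and 0.01 for all genes. The split of all calls by direction depended on scaling: 51.9% were higher with TMM, 65.2% with upper-quartile scaling, and 33.9% once GC content and length were corrected for.

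The receptors that rose with time belong to the ErbB, FGF and collagen receptor families. DDR2 stood at 194 and 227 CPM at 48 h with the FAT4 and control siRNA, against 134 and 158 CPM at 24 h (log2 fold change 0.53, SE 0.0922, edgeR adjusted p = 3.88e-07). Its log2 ratio over time was 0.53 with the FAT4 siRNA and 0.52 with the control siRNA. ERBB4, a neuregulin receptor, stood at 42.6 and 36.8 CPM at 48 h, against 26.6 and 27.9 CPM at 24 h (log2 fold change 0.54, SE 0.124, edgeR adjusted p = 0.000226). FGFR4 stood at 24.4 and 26.2 CPM at 48 h, against 15.6 and 20.3 CPM at 24 h (log2 fold change 0.49, SE 0.139, edgeR adjusted p = 0.00291). In these 3 genes the times did not overlap. The call of ERBB3 rested on 1 library: it had 2.49 and 0.596 CPM at 48 h, against 0.338 and 0.671 CPM at 24 h, and in the control libraries alone its plain log2 ratio was -0.17.

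FGFR3 had the largest fall, at 9.33 and 4.82 CPM at 48 h with the FAT4 and control siRNA, against 12.2 and 12.7 CPM at 24 h (log2 fold change -0.89, SE 0.18, edgeR adjusted p = 1.75e-05). TYRO3, a receptor for GAS6 and protein S, stood at 39.3 and 35.9 CPM at 48 h, against 48.4 and 58.4 CPM at 24 h (log2 fold change -0.51, SE 0.115, edgeR adjusted p = 0.000147). Reads may be split with its pseudogene TYRO3P, which had 4 to 7 counts per library. EPHA2 stood at 110 and 90.1 CPM at 48 h, against 135 and 132 CPM at 24 h (log2 fold change -0.42, SE 0.0954, edgeR adjusted p = 0.000168). EPHB4, ALK and FLT1, the last a VEGF receptor that also binds PGF, fell by 0.36, 0.48 and 0.46 on the log2 scale, and DDR1 and LTK by 0.46 and 0.47. In all 8 of these genes both 48 h libraries lay below both 24 h libraries.

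RET was called lower with time as well (log2 fold change -0.73, SE 0.103, edgeR adjusted p = 1.25e-10), but the 48 h and 24 h libraries overlapped. Its log2 ratio of 48 h over 24 h was -1.46 with the FAT4 siRNA and -0.09 with the control siRNA. KIT showed the same layout, with -0.64 and 0.02, and was not called for time (edgeR adjusted p = 0.092). FGFR3 differed the other way, with -0.36 with the FAT4 siRNA and -1.24 with the control siRNA. Whether such differences between siRNAs exceed the spread between cultures could not be tested, since a model with that term leaves no residual. DESeq2 called 2 receptors higher with time (ERBB4 and DDR2), beside 4.29% of all genes, and 4 lower (TYRO3, EPHA2, EPHB4 and DDR1), beside 5.21%. FLT1, FGFR3, FGFR4, RET, ALK and LTK were not called by it for time, and ERBB3 was given no adjusted p by it. With the GC and length correction all 13 calls stayed, and KIT and EPHA5 were added as lower, which gave 4 higher beside 11.5% of all genes and 11 lower beside 22.4%.

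**Figure D5:**
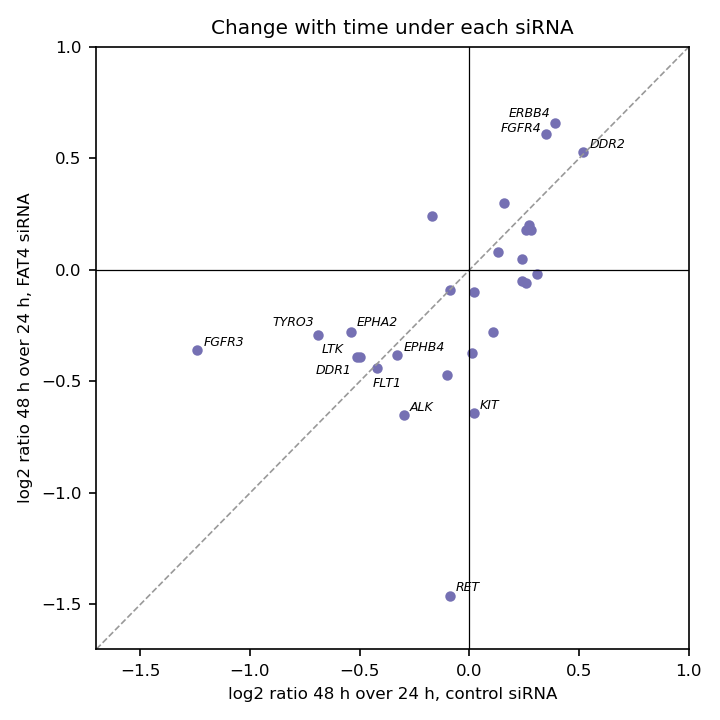
Log2 ratio of CPM plus 1 at 48 h over 24 h with the FAT4 siRNA (vertical axis) against the same with the control siRNA (horizontal axis) for the 28 expressed receptors; the dashed line marks equal change. DDR2 lies on the line at 0.53 and 0.52, RET far below it at -1.46 and -0.09, and FGFR3 to its left at -0.36 and -1.24.

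Ligands of these receptors were looked up from a list of 69 genes, of which 39 were tested and 28 expressed. With the FAT4 siRNA 3 rose and 2 fell, beside 11.9% and 14.1% of all genes, and the median fitted change of the tested ligands was -0.05. PGF, which binds FLT1, stood at 38.7 and 82.2 CPM with the FAT4 siRNA at 48 h and 24 h, against 19.3 and 56.6 CPM with the control siRNA (log2 fold change 0.75, edgeR adjusted p = 3.72e-09). PDGFC rose by 0.52 (edgeR adjusted p = 8.35e-05). EREG, an EGF-family ligand at low level, rose by 1.29 (edgeR adjusted p = 3.49e-05). It stood at 4.47 and 5.61 CPM with the FAT4 siRNA, against 1.44 and 2.73 CPM with the control siRNA. EREG averaged below the 5 CPM set for naming partner genes, and its result under the other settings was not looked at. ARTN, a GDNF-family ligand that reaches RET through GFRA3, stood at 14.8 and 20.4 CPM with the FAT4 siRNA, against 30.6 and 36.8 CPM with the control siRNA (log2 fold change -0.95, edgeR adjusted p = 1.8e-10). EFNB3, a ligand of EPHB receptors, fell by 0.69 (edgeR adjusted p = 7.45e-05). ARTN and RET thus both fell, while the GFRA co-receptors were at 0 (GFRA1, GFRA4), at most 0.271 CPM (GFRA3) or 12.0 to 21.5 CPM (GFRA2, which prefers neurturin). KITLG, the ligand of KIT, lay between 5.07 and 7.44 CPM. EFNB1, another ligand of EPHB receptors, lay between 190 and 222 CPM in all libraries.

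With time 7 of the 39 ligands rose and 4 fell, beside 13.8% and 12.8% of all genes, with VEGFA and EFNA3 among those that rose. VEGFA stood at 255 and 266 CPM at 48 h with the FAT4 and control siRNA, against 113 and 132 CPM at 24 h (log2 fold change 1.09, edgeR adjusted p = 2.94e-29), whereas its receptor FLT1 fell and KDR stayed below 2 CPM. PGF fell by 1.31 on the log2 scale with time, the opposite of its direction with the FAT4 siRNA.

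Co-receptors gave 3 higher and 4 lower calls of 15 tested with the FAT4 siRNA, beside 11.9% and 14.1% of all genes, with a median of -0.20. NGFR, the low-affinity neurotrophin receptor, stood at 47.8 and 82.5 CPM with the FAT4 siRNA at 48 h and 24 h, against 98.0 and 121 CPM with the control siRNA (log2 fold change -0.79, edgeR adjusted p = 4.21e-13). Its partner among the tested receptors, NTRK2, was below 2 CPM and NTRK3 had at most 3 counts. KL, a co-receptor for FGF23, and NRP1 fell by 0.52 and 0.40, while the heparan sulfate carriers GPC6, SDC2 and GPC1 rose by 0.50, 0.41 and 0.36. With time 3 co-receptors rose and 3 fell, beside 13.8% and 12.8% of all genes, and the fall of CD44 was the largest at -1.48.

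Of 36 adaptors and effectors tested, 3 rose and 9 fell with the FAT4 siRNA, beside 11.9% and 14.1% of all genes (median -0.04). IRS2, a docking protein of insulin-type receptors, stood at 196 and 193 CPM with the FAT4 siRNA at 48 h and 24 h, against 320 and 302 CPM with the control siRNA (log2 fold change -0.68, edgeR adjusted p = 5.82e-12). VAV2 and PIK3R2 fell by 0.77 and 0.57, and DOK5, GAB2 and IRS1 rose by 0.69, 0.30 and 0.27. IRS1 and IRS2 therefore changed in opposite directions. With time 7 rose and 5 fell, beside 13.8% and 12.8% of all genes.

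Attenuators, the phosphatases, ubiquitin ligases and inhibitors that end receptor signalling, gave 5 higher and 6 lower calls of 30 tested with the FAT4 siRNA, beside 11.9% and 14.1% of all genes (median 0.11). ERRFI1, which binds and blocks ErbB kinase domains, stood at 222 and 163 CPM with the FAT4 siRNA at 48 h and 24 h, against 83.4 and 94.1 CPM with the control siRNA (log2 fold change 1.10, edgeR adjusted p = 1.63e-27). Its targets ERBB2 and ERBB4 were not called. SOCS3 and SPRED1 rose by 0.59 and 0.42, while PTPRJ, SPRY4 and LRIG1 fell by 0.68, 0.35 and 0.31. With time 5 rose and 3 fell, beside 13.8% and 12.8% of all genes.

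Sheddases cut receptors and their ligands at the membrane. The list of them also held related genes, such as a protease inhibitor and gamma-secretase subunits. Of 12 listed genes tested, 2 rose and 4 fell with the FAT4 siRNA, beside 11.9% and 14.1% of all genes (median -0.17). ADAM10, which sheds ephrins and several receptors, stood at 77.5 and 68.9 CPM with the FAT4 siRNA at 48 h and 24 h, against 158 and 132 CPM with the control siRNA (log2 fold change -0.98, edgeR adjusted p = 3.03e-21). ADAM9 and ADAM17 rose by 0.83 and 0.57, so the ADAM proteases did not move together. ADAM15 was called lower as well (log2 fold change -0.30, edgeR adjusted p = 0.0332), but not by DESeq2 or with the GC and length correction. TIMP3, an inhibitor of such proteases, and APH1A, a gamma-secretase subunit, fell by 0.76 and 0.45. With time 3 rose and 1 fell, beside 13.8% and 12.8% of all genes.

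Calls for several of these partner genes rested on the procedure. DESeq2 did not call GPC1, KL, NRP1, DOK5, GAB2, IRS1, SOCS3, SPRED1, SPRY4 and LRIG1 for the siRNA, although its log2 fold changes were close to those of edgeR, such as 0.70 and 0.69 for DOK5 and -0.39 and -0.40 for NRP1. For time, 17 of the 28 partner genes looked at under other settings lost their calls in DESeq2, while VEGFA, EFNA3, PGF and CD44 were called by it. With the GC and length correction PIK3R2, SPRY4 and LRIG1 lost their calls, with fitted log2 fold changes of -0.25, -0.24 and -0.15. PGF, PDGFC, ARTN, EFNB3, NGFR, IRS2, ERRFI1 and ADAM10 were called in the same direction by both.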

How the data were processed

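The authors deposited whole-number read counts per gene, not normalized, 1 file per library. Per the submitters' processing notes, CASAVA 1.8.2, TopHat2, SAMtools, HTSeq and build hg19 were used; per the labels' protocols, the mRNA libraries were stranded. The labels do not give the annotation, counting mode or strand setting, so overlapping and antisense genes are uncertain. The 5 counter entries per file that name no gene were left out; reads outside genes were 19.48% to 20.54% and ambiguous reads 0.772% to 0.804%.

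Counts were fitted with edgeR 4.0.16 in R 4.3.3 (TMM, filterByExpr at min.count 10 and min.total.count 15, quasi-likelihood test of siRNA and time as additive terms, two-sided, Benjamini-Hochberg over 13712 genes, threshold 0.05). With 1 residual degree of freedom, the fit used 1 trend of dispersion for every gene (common BCV 0.0737). Fold changes are on the log2 scale. Ratios at 1 time use CPM plus 1 for log2 values and exact 95% Clopper-Pearson intervals for plain ratios. Neither these intervals nor the 3-count floor of a library cover more than counting error.

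GENCODE release 29 gave transcript lengths, GC content and 3' UTRs; its build differs from hg19 and its coordinates were not used. Of tested genes 95.7% matched a transcript. The GC and length correction used natural splines fitted in each library (5 and 4 degrees of freedom), entered as offsets. DESeq2 1.42.0 and other settings were alternatives. Every member was named; of each of 5 companion lists (175 entries) up to 3 genes per direction with the largest fitted change among those of at least 5 CPM, and EFNB1, KITLG, GFRA and other partners of named receptors were added after their values were seen. The members and lists were chosen with earlier results of these data known.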

Additional observations from a re-analysis of the deposited data

Results flagged for a closer look

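FGFR1, a receptor for fibroblast growth factors, differed between the times. The FAT4 siRNA over control ratio was 1.23 at 48 h (95% counting interval 1.16 to 1.3) and 0.926 at 24 h (0.873 to 0.982), so it lay above 1 at one time and below 1 at the other. The difference of the log2 ratios (CPM plus 1), 48 h minus 24 h, was 0.41. FGFR1 did not stand out by size. The difference was larger for RET (-1.37), FGFR3 (0.88) and KIT (-0.66), and for ERBB3 (1.45) and KDR (0.87) at low counts. With 1 library per siRNA and time, these differences were not tested.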

How the results depend on the processing

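With DESeq2, genes called fell to 1234 for the siRNA, against 3555 in edgeR, and to 1176 for time, against 3646; receptors called were 3 for the siRNA, against 10, and 6 for time, against 13. With the time term left out, no gene was called for the siRNA (0 of all genes and 0 receptors in edgeR; 1706 genes and 5 receptors at an unadjusted p under 0.05). With the siRNA term left out, 50 genes and 0 receptors were called for time (7 receptors at an unadjusted p under 0.05). With a pseudocount of 2 CPM, 1 log2 ratio past the threshold was left, against 3, and 1 large difference between times, against 2. The time change of ERBB3 reversed in the control libraries alone (-0.17). The causes were not tested. Other scalings and filters of the edgeR fit moved the receptor calls of DDR2 (siRNA), FLT1 and PTK7 (time), and ERBB3, called for time, was not tested among genes of at least 5 CPM. Upper-quartile scaling was chosen after seeing the data. The number of expressed receptors was 30 at 0.5 CPM and 27 at 5 CPM, against 28. There were no replicates to pair, since each siRNA and time had 1 library. The fit with both terms already sets the siRNAs against each other within each time. Depth limits the 16 receptors left out by the filter on low counts, which had at most 9 counts in a library.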
